A study of Mus musculus with 6 samples.

Results

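The genes described here encode 10 members of the tetraspanin family: Tspan7, which is described first, and Tspan3, Tspan4, Tspan6, Tspan12, Cd9, Cd63, Cd81, Cd82 and Cd151. They were found on the array through the RefSeq accession of each non-control probe, which gave 13 probes of 39429 and 10 genes of the 32451 named genes and unnamed accessions on the array. Tspan7 was chosen because of its difference between the groups compared here, so its values are a description and carry no test, and the other members were chosen with earlier results of these data known. The RNA came from C2C12, a mouse myoblast line that is well established, proliferates in serum-rich medium and can fuse into myotubes. All cultures were kept in DMEM with 10% fetal bovine serum and antibiotics, and were transfected at 70 to 80% confluence. The control cultures received a negative control oligonucleotide (siRNA-NC), and the others an siRNA that targets Meg3, a long non-coding RNA (siRNA-MEG3), given in the labels as "20 um". Each group has 3 arrays labelled as biological replicates. The siRNA sequences, the number of siRNAs and the time from transfection to RNA extraction are not given in the sources used here. The comparison asks which transcripts differ after transfection with the siRNA against Meg3.

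Tetraspanins are small membrane proteins that cross the membrane 4 times and carry a large extracellular loop with conserved cysteines. They bind each other and a set of partners, among them integrins, immunoglobulin-superfamily proteins and the membrane protease ADAM10, and so organise these partners in membrane microdomains and on extracellular vesicles. In muscle, CD9 and CD81 are known as regulators of the fusion of myoblasts into myotubes.

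Between 62.8 and 75.2% of spots stood well above background on the 6 arrays, and no spot was saturated. On 251 probes printed 10 times, siRNA-NC arrays 1 and 3 differed by little more than single spots did (variance between probes over variance within them, 1.36), and siRNA-NC arrays 1 and 2 by far more (110). On siRNA-MEG3 arrays 1 and 3 the scatter of single spots was shared (r = 0.99). The near-identical arrays were averaged in pairs, so each group has 2 samples. For siRNA-MEG3 arrays 1 and 2 the ratio was 1.97, with a large scatter within probes, so the spread in that group may be technical. The low ratio does not mean that these arrays were close. The SD of their differences between probes was 0.254, against 0.0632 for siRNA-NC arrays 1 and 3. Over genes, array 2 minus the mean of arrays 1 and 3 had an SD of 0.80 in siRNA-MEG3 and 0.58 in siRNA-NC. Dark patches, sought only on the siRNA-MEG3 arrays, covered 33.9, 5.95 and 22.7% of the spots on arrays 1, 2 and 3. They were defined by low signal relative to the siRNA-NC arrays, which were not searched themselves. No slide or scan held arrays of both groups, so the groups cannot be told apart from their slides. Of the 3 Meg3 probes, 1 was well above background on 1 siRNA-NC array and none on any siRNA-MEG3 array, so these arrays do not measure the knockdown. Because the samples are bulk RNA, a change in the share of cells that express a gene and a change in RNA per cell cannot be told apart.

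Tspan7 encodes a tetraspanin of the nervous system that binds PICK1 and affects the trafficking of AMPA receptors, and its human counterpart is a gene of X-linked intellectual disability. Its single probe read a processed signal of 17.6, 15.5 and 11.9 on siRNA-NC arrays 1, 2 and 3, and 3595, 3752 and 3513 on siRNA-MEG3 arrays 1, 2 and 3. Relative to each array's 75th percentile, these were log2 levels of -6.19, -7.20 and -6.69 against 1.46, 1.49 and 1.51. All siRNA-MEG3 arrays lay far above all siRNA-NC arrays, and the nearest arrays of the 2 groups were 7.66 log2 units apart. The siRNA-NC signal was well above background on array 1 and not on arrays 2 and 3, whereas it was on all 3 siRNA-MEG3 arrays. The fitted difference was 8.31 ± 0.33 on the log2 scale (SE from limma, 2 samples per group), which takes the dim siRNA-NC readings at face value. With each siRNA-NC array set no lower than its lowest signal well above background, Tspan7 was at least 283-fold higher at this scaling. The fitted difference ranked 1 of the 22056 genes tested, a rank that rests on readings at or below background. None of its siRNA-MEG3 spots lay in a dark patch. In the authors' deposited table the same probe stood at log2 values of 4.31, 3.38 and 3.56 in siRNA-NC and 11.961, 11.997 and 12.003 in siRNA-MEG3. With normexp background correction the difference was 5.96, the lowest of 20 alternative settings, and quantile normalization gave the highest, 8.58. The normexp setting adds an offset of 50 to every corrected signal. Such an offset by construction shrinks log2 differences that involve dim readings. The normexp value is smaller than the bound, which is 8.145 on the log2 scale. The bound therefore holds only for the processed signal used here.

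**Figure D1:**
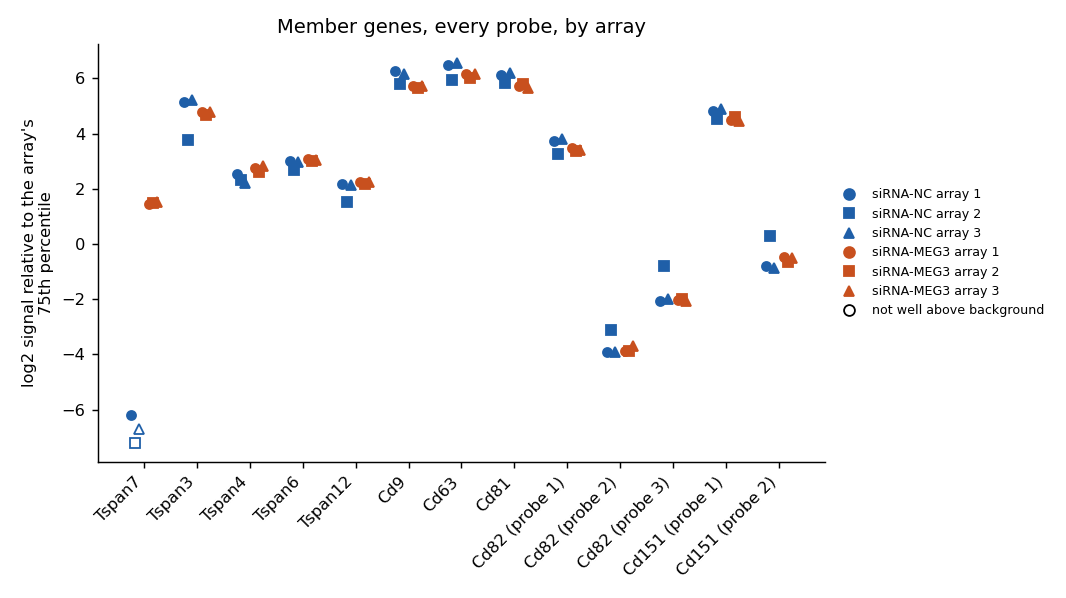
Level of each member probe on each of the 6 arrays, as log2 signal relative to the array's 75th percentile; each point is 1 array, and numbered entries are different probes of a gene. Tspan7 stands at -7.20 to -6.19 on the siRNA-NC arrays and at 1.46 to 1.51 on the siRNA-MEG3 arrays, while the group means of the other 12 probes differ by -0.60 to 0.37; heights of different probes are not comparable.

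The promoter windows of 3 family genes are shown. Tspan7 was taken as the gene chosen from this contrast. Tspan33 and Tspan13 were taken because they passed the adjusted threshold in the higher direction in the rest of the family. Each window runs from 250 bases before to 50 bases after the gene's start, from RefSeq on GRCm38.p6, and is printed 5′ to 3′ on the gene's strand. Capitals mark CANNTG, the E-box core that the muscle factors MYOD1 and myogenin, among many others, can bind. The windows are chrX:10484866-10485165 on the plus strand for Tspan7, chr6:29693964-29694263 on the plus strand for Tspan33 and chr12:36042429-36042728 on the minus strand for Tspan13.
Tspan7: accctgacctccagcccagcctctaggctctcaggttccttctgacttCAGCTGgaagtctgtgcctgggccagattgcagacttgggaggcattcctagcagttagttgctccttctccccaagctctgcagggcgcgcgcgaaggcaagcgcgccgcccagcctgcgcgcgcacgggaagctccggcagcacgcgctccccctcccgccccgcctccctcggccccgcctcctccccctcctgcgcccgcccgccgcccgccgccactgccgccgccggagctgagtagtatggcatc
Tspan33: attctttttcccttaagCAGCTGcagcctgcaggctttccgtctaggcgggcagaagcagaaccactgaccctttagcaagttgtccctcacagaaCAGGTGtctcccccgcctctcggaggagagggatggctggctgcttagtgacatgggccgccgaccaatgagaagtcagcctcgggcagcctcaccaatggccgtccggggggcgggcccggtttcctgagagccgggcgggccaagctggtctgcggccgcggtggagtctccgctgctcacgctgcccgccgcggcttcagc
Tspan13: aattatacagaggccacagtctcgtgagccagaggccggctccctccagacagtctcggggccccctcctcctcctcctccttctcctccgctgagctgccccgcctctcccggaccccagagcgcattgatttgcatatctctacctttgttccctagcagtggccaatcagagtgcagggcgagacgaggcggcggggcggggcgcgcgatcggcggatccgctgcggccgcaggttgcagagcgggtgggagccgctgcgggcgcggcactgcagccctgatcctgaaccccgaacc
The Tspan7 window held 1 match to CANNTG, which was CAGCTG, and the Tspan33 window held 2, of which 1 was CAGCTG. The Tspan13 window held none. CANNTG reads the same on both strands and includes every CAGCTG. Of all 32851 windows of this length, 72.3% held CANNTG and 16.3% held CAGCTG, so an E-box core is common in such windows. CATTCC, the core bound by TEAD factors, was searched on both strands; 1 match lay in the Tspan7 window and none in the other two, against 14.7% of all windows with a match. Over the 15 windows of the 10 members, 12 held CANNTG, 3 held CAGCTG and 4 held CATTCC, and the members that did not pass the test are included in these counts. A match is a description of the sequence and does not show binding.

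The other 9 members did not pass the test, and all 9 differed by at most 0.5 on the log2 scale, as did 62.1% of all genes tested. Of the 10 members tested, 1 passed, in the higher direction, which is Tspan7, and none in the lower; 1.37% of all genes passed in either direction, 0.952% in the higher and 0.422% in the lower direction. Tspan7 was chosen on this contrast, so nothing is read from the count. The median difference of the members was 0.05, and -0.10 without Tspan7, beside -0.02 for all genes. In 5 of the 10 members the arrays of the groups did not overlap, 3 higher and 2 lower, beside 46.9% of all genes (25.2% higher and 21.7% lower), so the members' share is near the background. The 12 member probes other than that of Tspan7 were well above background on all 6 arrays, so these transcripts were measured in both groups.

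CD9 and CD81 are close relatives that bind the immunoglobulin-superfamily proteins IGSF8 and PTGFRN and act in cell fusion. Cd9 read 6.28, 5.81 and 6.16 on siRNA-NC arrays 1, 2 and 3, and 5.72, 5.66 and 5.72 on siRNA-MEG3 arrays 1, 2 and 3. Every siRNA-MEG3 array lay below every siRNA-NC array, with -0.09 between the nearest arrays of the groups. The Cd9 difference was -0.32 ± 0.24 (SE, limma adjusted p = 0.557, 95% interval -0.99 to 0.34). Cd81 read 6.12, 5.82 and 6.19 in siRNA-NC, and 5.71, 5.80 and 5.67 in siRNA-MEG3. Its groups did not overlap either, with siRNA-NC array 2 next to siRNA-MEG3 array 2, and the difference was -0.24 ± 0.23 (limma adjusted p = 0.650, interval -0.87 to 0.39). These intervals include no change and, at their lower end, a fall of close to 1 log2 unit. The separation of the groups depends on the scaling. In the authors' deposited table the groups overlapped for both genes, with differences of -0.11 for Cd9 and -0.03 for Cd81. Quantile normalization gave -0.11 and -0.04.

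CD63 is a tetraspanin of late endosomes and exosomes and a common marker of these vesicles. Cd63 read 6.50, 5.93 and 6.56 in siRNA-NC, and 6.17, 6.001 and 6.16 in siRNA-MEG3. The siRNA-MEG3 arrays lay between siRNA-NC array 2 and the other two siRNA-NC arrays, and the difference was -0.15 ± 0.29 (limma adjusted p = 0.834, interval -0.94 to 0.64).

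CD151 binds the laminin-binding integrins, and CD82 is known as a suppressor of metastasis and as a surface protein of muscle stem cells. The brighter Cd151 probe read 4.82, 4.52 and 4.91 in siRNA-NC, and 4.49, 4.61 and 4.48 in siRNA-MEG3; the groups overlapped. Its difference was -0.15 ± 0.23 (limma adjusted p = 0.791, interval -0.78 to 0.48). The brightest Cd82 probe read 3.73, 3.25 and 3.79 in siRNA-NC, and 3.47, 3.36 and 3.42 in siRNA-MEG3, and again overlapped, with a difference of -0.10 ± 0.27 (limma adjusted p = 0.886, interval -0.82 to 0.62). Both genes have further probes, which differed from the first in how siRNA-NC array 2 behaved. The second Cd151 probe read -0.80, 0.30 and -0.86 in siRNA-NC, and -0.47, -0.64 and -0.49 in siRNA-MEG3. The other Cd82 probes read -3.91, -3.11 and -3.92, and -2.05, -0.79 and -2.003 in siRNA-NC; in siRNA-MEG3 they read -3.89, -3.86 and -3.70, and -2.04, -1.98 and -2.05. On these 3 probes siRNA-NC array 2 lay 0.80 to 1.24 above the mean of arrays 1 and 3, whereas on the representative probes of all 10 members it lay below that mean. This contrast depends in part on the scaling. In the authors' deposited table, array 2 was the highest siRNA-NC array for Cd9, Cd81 and Tspan4, and the lowest on the representative probes of the other members. All 3 differences were negative, -0.30 for Cd151 and -0.32 and -0.60 for Cd82, with overlapping groups.

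The remaining 4 members are Tspan12, a part of the norrin receptor complex with FZD4, Tspan4, a protein of the retraction fibres and migrasomes of migrating cells, Tspan6, a protein of endosomes and exosomes, and Tspan3. Tspan4 read 2.56, 2.32 and 2.22 in siRNA-NC, and 2.75, 2.62 and 2.82 in siRNA-MEG3. The groups did not overlap, by 0.06, and the difference was 0.35 ± 0.20 (limma adjusted p = 0.458, interval -0.21 to 0.91). Tspan6, on the X chromosome as is Tspan7, read 3.00, 2.68 and 2.99, and 3.07, 3.01 and 3.05. Its groups did not overlap, by 0.01, with a difference of 0.20 ± 0.22 (limma adjusted p = 0.700, interval -0.41 to 0.81). Tspan12 read 2.18, 1.53 and 2.15, and 2.24, 2.17 and 2.26. Only siRNA-NC array 2 stood apart, and the difference was 0.37 ± 0.30 (limma adjusted p = 0.583, interval -0.44 to 1.17). Tspan3 read 5.15, 3.76 and 5.21, and 4.80, 4.68 and 4.80, with siRNA-NC array 2 the lowest and arrays 1 and 3 the highest of the 6. Its difference was 0.27 ± 0.53 (limma adjusted p = 0.840, interval -1.17 to 1.71), the widest interval among the members.

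In 8 of the 9 members other than Tspan7 the 2 siRNA-NC samples differed from each other by more than the groups did; Tspan4 was the exception. The 2 siRNA-MEG3 samples differed by at most 0.2 in all 9. Spots of the representative probes of 5 member genes lay in a dark patch on at least 1 siRNA-MEG3 array. With such spots left out, the differences were 0.20 for Tspan6, -0.32 for Cd9 and -0.15 for Cd63, while Tspan3 and Cd81 had no value under that setting. No member other than Tspan7 passed under any of the 20 alternative settings. Tspan3, Cd63 and Cd151 changed sign in at least 1 setting, so no direction is given for them.

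**Figure D2:**
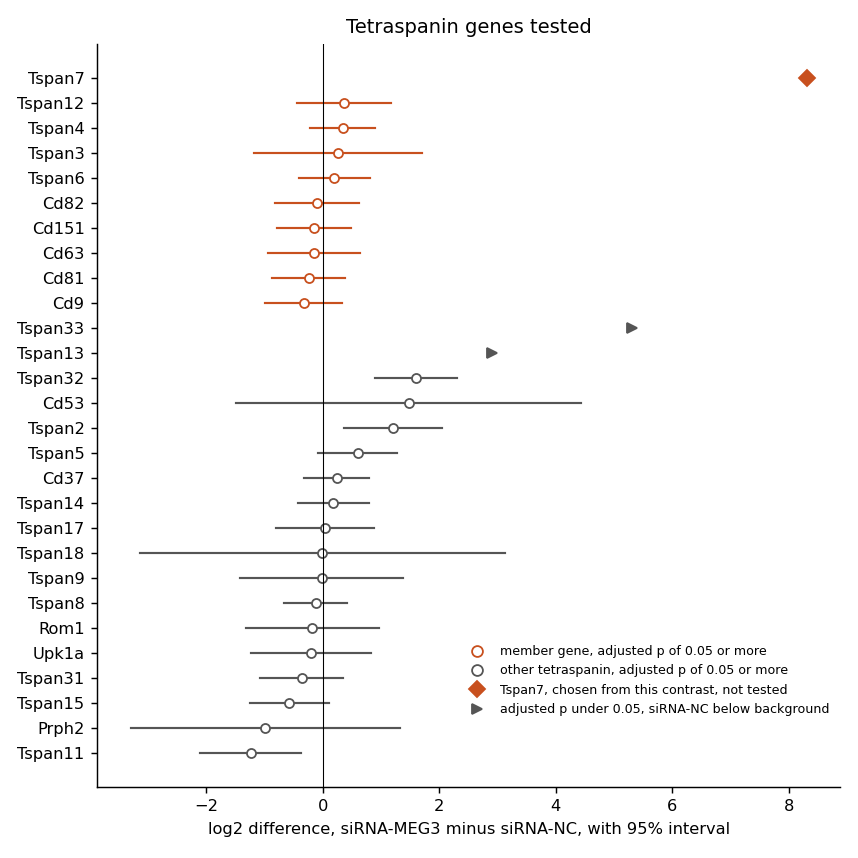
Difference in log2 level, siRNA-MEG3 minus siRNA-NC, for the 10 members and the 18 other tetraspanin genes tested, with bars for 95% intervals from limma. Tspan7, at 8.31, is a diamond without a bar because it was chosen from this contrast, and Tspan33 and Tspan13 are triangles without a bar because their siRNA-NC level was below background; the other 9 members lie between -0.32 and 0.37.

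Of the other 22 family genes listed, 21 were found on the array (Tspan19 was not) and 18 were tested. Tspan1, Tspan10 and Upk1b were not well above background on all arrays of either group. Among the 18, 2 passed in the higher direction, none in the lower, and 16 did not pass, beside 0.952% of all genes higher and 0.422% lower; the median difference was 0.02. Tspan33, a tetraspanin of the subgroup that guides ADAM10 to the cell surface, read -8.60, -9.26 and -8.63 in siRNA-NC, where it was not well above background, and -3.66, -3.66 and -3.53 in siRNA-MEG3. Its signal was 3.32, 3.73 and 3.10 against 104, 105 and 107. The level in siRNA-MEG3 was at least 8.40-fold higher than in siRNA-NC (limma adjusted p = 0.0224). Such a bound sets the siRNA-MEG3 mean against, on each siRNA-NC array, the lowest signal of any probe well above background or the gene's own signal, whichever is higher. Tspan13 read -6.54, -7.47 and -6.92 in siRNA-NC, also below background, and -4.30, -4.19 and -4.08 in siRNA-MEG3, which was at least 5.69-fold higher (limma adjusted p = 0.0489). Its spot lay in a dark patch on 2 siRNA-MEG3 arrays. With normexp correction and its offset of 50, the fitted log2 differences were 1.98 for Tspan33 and 1.15 for Tspan13, smaller than the bounds. Neither passed under that setting (limma adjusted p = 0.0688 and 0.212). Tspan33 passed in 17 of 20 alternatives; it was also lost without the filter on dim probes (0.0578) and when siRNA-NC array 2 was left out (0.118), which leaves 1 sample in that group. Tspan13 passed in 11 of 19; it was also lost without the filter (0.114), with the replicate block on 4 samples (0.0600), with the median over probes (0.0527), with the percentile over probes usable on all arrays (0.0520), and without siRNA-NC array 2 (0.118), siRNA-NC array 3 (0.0681) or siRNA-MEG3 array 3 (0.0508).

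The 3 genes with the smallest p among those that did not pass were Tspan32, Tspan11 and Tspan2. Tspan32, a tetraspanin of blood cells, read 0.30, -0.19 and 0.21 in siRNA-NC, and 1.68, 1.54 and 1.78 in siRNA-MEG3 on its brightest probe. The difference was 1.60 ± 0.26 (limma adjusted p = 0.0879), while its other probes gave 0.61 and -0.25, so the size differs between probes. The negative value rests on siRNA-MEG3 array 2, which read -7.31 and was not well above background. On that probe siRNA-MEG3 arrays 1 and 3 read -4.67 and -4.80, above the siRNA-NC arrays at -5.83, -5.58 and -6.12. Tspan2, known from oligodendrocytes, read -4.33, -5.09 and -4.50, and -3.56, -3.47 and -3.69, a difference of 1.21 ± 0.31 (limma adjusted p = 0.173). Tspan11 read -4.24, -3.65 and -4.37, and -5.36, -5.06 and -5.40, a difference of -1.24 ± 0.32 (limma adjusted p = 0.173). In all 3 the groups did not overlap on the representative probe, as in 46.9% of all genes. Cd53, a leukocyte tetraspanin singled out after its values were seen, read -2.503, 0.62 and -2.46 in siRNA-NC, and 0.49, 0.54 and 0.61 in siRNA-MEG3. siRNA-NC array 2 stood at the siRNA-MEG3 level, the difference was 1.47 ± 1.09 (limma adjusted p = 0.553), and without that array it was 3.03.

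**Figure D3:**
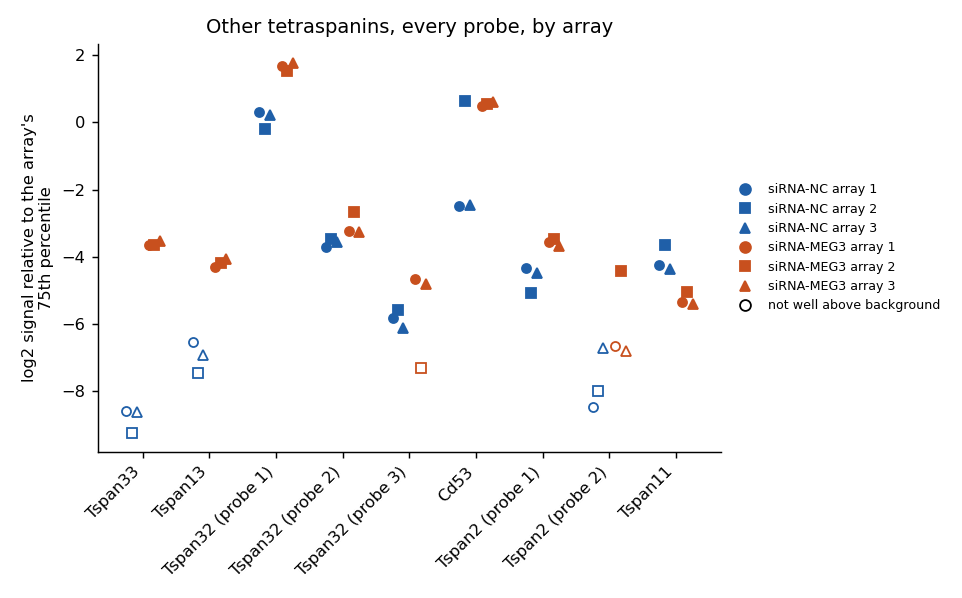
Level of the probes of Tspan33, Tspan13, Tspan32, Tspan11, Tspan2 and Cd53 on each array, as log2 signal relative to the array's 75th percentile; each point is 1 array. Tspan33 and Tspan13 lie higher on all siRNA-MEG3 arrays, and the siRNA-NC point of Cd53 at 0.62 is array 2.

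Some family genes lie next to each other in the RefSeq annotation. Cd81 and Tspan32 are neighbours on chromosome 7 with no protein-coding gene between them, as are Tspan18 and Cd82 on chromosome 2 and Tspan11 and Tspan9 on chromosome 6, and 1 gene, Polr2l, separates Cd151 from Tspan4. The differences of these neighbours were -0.24 for Cd81 beside 1.60 for Tspan32, and -0.15 for Cd151 beside 0.35 for Tspan4. They were -1.24 for Tspan11 beside -0.02 for Tspan9, and -0.01 for Tspan18 beside -0.10 for Cd82. None of these genes passed the test. The Tspan18 value rests on siRNA-MEG3 array 2, which read -7.50 and was not well above background. On that probe siRNA-MEG3 arrays 1 and 3 read -4.23 and -4.20, above the siRNA-NC arrays at -5.92, -5.84 and -5.79. Without siRNA-MEG3 array 2 the Tspan18 difference was 1.64.

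Of 20 known partners of tetraspanins on the array, 19 were tested (Ndp was not), 1 passed in the higher direction, none in the lower, and 18 did not pass, beside the same 0.952 and 0.422% of all genes; the median difference was -0.08. The gene that passed was Itga4, the alpha-4 integrin subunit of the receptor for VCAM1. It read -8.06, -8.54 and -8.11 in siRNA-NC, below background, and -3.02, -2.77 and -3.04 in siRNA-MEG3, at least 13.9-fold higher (limma adjusted p = 0.0206); a further probe was below background in both groups. The call was lost with normexp (log2 difference 1.96, smaller than the bound; adjusted p = 0.0575), without the filter on dim probes (0.0578) and when siRNA-NC array 2 was left out (0.118). Next by p were Itga7, the laminin-receptor subunit of muscle, at 0.74 ± 0.20 (limma adjusted p = 0.183), Pi4k2a, a lipid kinase bound by several tetraspanins, at 1.096 ± 0.37 (limma adjusted p = 0.239) with a further probe at -1.02, and Itga3, a laminin-receptor subunit bound by CD151, at -1.72 ± 0.61 (limma adjusted p = 0.258). Pick1, the partner of TSPAN7, was at -0.39 ± 0.50 (limma adjusted p = 0.739). Igsf8 and Ptgfrn, the partners of CD9 and CD81, were at -0.14 ± 0.24 and 0.45 ± 0.31, and Fzd4, the partner of TSPAN12, at 0.75 ± 0.36, none of which passed (limma adjusted p of 0.804, 0.529 and 0.360).

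The genes most like Tspan7 over the 6 arrays, by the smallest root mean square difference between log2 levels centred on each gene's own mean, were Vgll2 (0.328), Pdlim3 (0.677), Alox5 (0.742) and Myh3 (0.780). Vgll2 encodes a muscle cofactor of the TEAD proteins, Pdlim3 a protein of the muscle Z-disc, Alox5 the enzyme 5-lipoxygenase and Myh3 the embryonic myosin heavy chain. Vgll2 read -7.38, -7.30 and -7.12 in siRNA-NC and 0.81, 0.96 and 0.83 in siRNA-MEG3, and was below background on all siRNA-NC arrays, so it was at least 193-fold higher. Pdlim3, Alox5 and Myh3, which were well above background on all 6 arrays, differed by 6.93, 7.22 and 6.97. Alox5 was dim in siRNA-NC, at -6.165, -6.41 and -4.89 on arrays 1, 2 and 3, so the size of its difference is uncertain. These genes were picked for likeness to a gene chosen on this contrast, so their differences carry no test here.

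**Figure D4:**
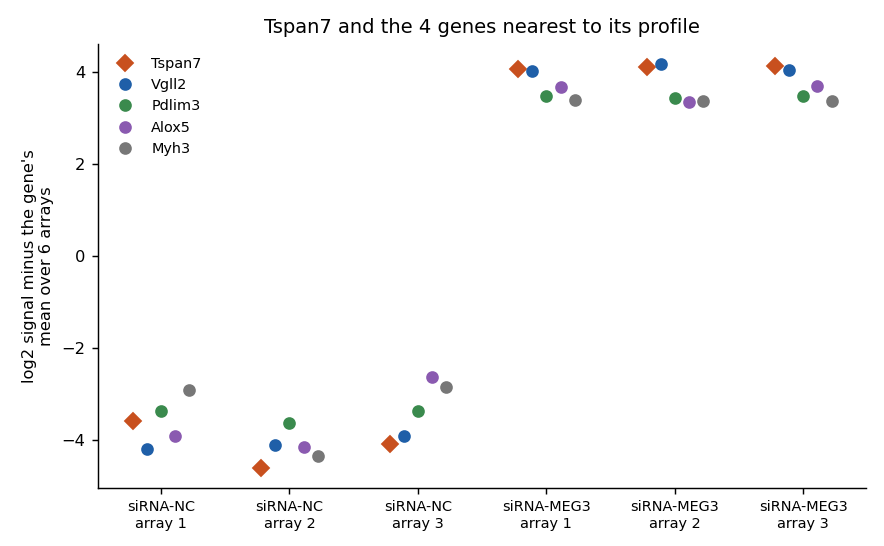
Level of Tspan7 and of the 4 genes nearest to its profile on each array, as log2 signal minus the gene's own mean over the 6 arrays; each point is 1 array, and diamonds are Tspan7. The siRNA-MEG3 points of the 5 genes lie above 0 and the siRNA-NC points below 0, with the closest match, Vgll2, at a root mean square difference of 0.328.

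Cell type markers were read beside these results. All 7 myoblast markers were well above background on all 6 arrays, as the cell label says; their summed level, in multiples of each array's 75th percentile, was 41.7 to 51.1 in siRNA-NC and 59.8 to 60.7 in siRNA-MEG3. The sum hides differences of both signs, with Myf5 at -2.95, Myod1 at 2.21 and Cdh15 at 1.33, none of which passed (limma adjusted p of 0.0703, 0.121 and 0.0988). Of 8 markers of differentiated muscle, 6 in siRNA-NC and 7 in siRNA-MEG3 stood well above background throughout the group, and Actn2 in neither; the sums were 1.41 to 2.05 and 22.9 to 23.3. Of the 7 tested, 3 passed in the higher direction: Myog at 3.39 and Mymx at 3.72 (limma adjusted p of 0.0246 and 0.0298), and Myh3 at 6.97. Myh3 was also picked above for likeness to Tspan7, so its difference carries no test. Myog, Mymx and Myh3 were higher in the same group as Tspan7, which for Myh3 follows from how it was picked. Their part in the Tspan7 difference was not tested. Tspan7 is also known from neurons. Of 8 neuron markers, 6 and 5 were well above background on all arrays of siRNA-NC and siRNA-MEG3, Syt1 and Elavl3 were in neither, and the sum over the 7 markers usable on all arrays was 4.2 to 4.24 and 3.9 to 4.16. Of the 5 tested, 1 passed, Map2 at 3.35 (limma adjusted p = 0.0246); Snap25 was at -1.73 (limma adjusted p = 0.0755), Rbfox3 at 0.68, Gap43 at 0.13 and Syp at 0.04.

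Leukocyte markers bear on Cd53 and Tspan32. Of 8 listed, 7 were found on the array. In siRNA-NC 7 and in siRNA-MEG3 4 stood well above background throughout the group, with sums of 1.56 to 2.21 and 1.18 to 1.70. None passed, and 2 differences were positive and 5 negative. Detection was lower over all spots too. On arrays 1, 2 and 3, 63.0, 69.3 and 62.8% of spots were well above background in siRNA-MEG3, against 70.1, 75.2 and 71.9% in siRNA-NC. The lower marker count is therefore not particular to leukocyte markers. Fibroblast markers were well above background on all arrays for 5 of 5 in siRNA-NC and 4 of 5 in siRNA-MEG3. Their sums were 93.4 to 140 and 148 to 163. This sum too hides differences of both signs, with Col1a1 at 0.64, Thy1 at 0.30, Lum at 0.02, Dcn at -0.04 and Pdgfra at -0.74. None of them passed (smallest limma adjusted p = 0.236). Endothelial markers were present for 2 of 5 in both groups, without Cdh5, Tek and Emcn, and epithelial markers for 1 of 4, without Epcam, Krt18 and Cdh1. Their sums were 0.896 to 0.955 and 0.907 to 1.24 for endothelium, and 0.525 to 0.75 and 0.624 to 0.665 for epithelium. The part of other cells in the tetraspanin levels was not tested.

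**Figure D5:**
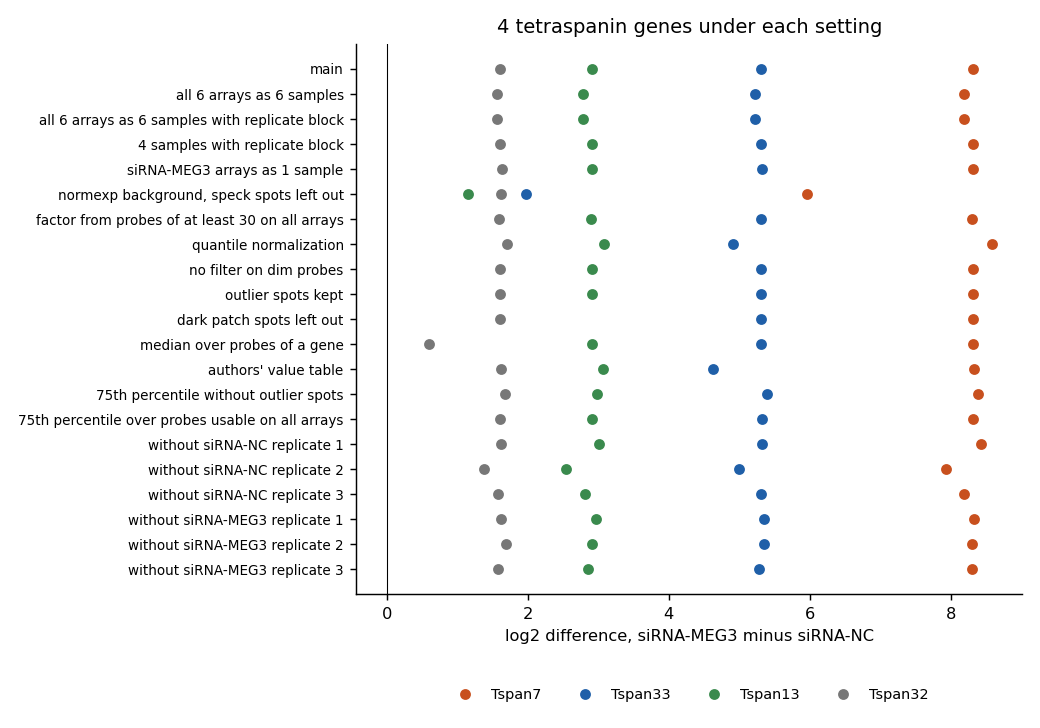
Difference in log2 level, siRNA-MEG3 minus siRNA-NC, of 4 tetraspanin genes in the fit described here and under the alternative settings; each point is 1 setting, with 20 alternatives for Tspan7, Tspan33 and Tspan32 and 19 for Tspan13, which had no value with dark-patch spots left out. Tspan7 stays between 5.96 and 8.58. The leftmost points of Tspan7, Tspan33 and Tspan13 come from normexp background correction, which adds an offset of 50.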

How the data were processed

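RNA from 6 samples of C2C12 cells, 3 per group by title, was measured on single-colour Agilent mouse arrays. Per the file headers, the deposited scanner files come from Agilent Feature Extraction 11.0.1.1 and hold, per spot, an intensity already corrected for background and spatial trend. The authors' deposited table holds log2 values of 30732 probes (median 8.11 per array), which followed the log2 processed signal; its exact between-array step is unknown. Per the labels' protocols, repeated probes were averaged by the authors, and their normalization factor used probes of at least 30 in all samples.

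Control and outlier spots were left out, spots of a probe were averaged, and log2 processed signal was set relative to each array's 75th percentile. Probes were kept if well above background throughout 1 group or both, and each gene was represented by its brightest kept probe. Of 39429 probes, 27234 had a symbol through RefSeq (GRCm38.p6) and 12195 had none. The comparison used limma 3.58.1 under R 4.3.3 (2-sided, Benjamini-Hochberg over 22056 genes, threshold 0.05); the fit had 2 residual and 2.20 prior degrees of freedom. The script was tested on simulated data. The number of arrays limits the precision, and nothing says that the cultures were separate beyond the label of biological replicates.

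The members, gene lists, markers and the averaging of near-identical arrays were chosen with earlier results of these data known. Named genes were all members, list genes past the threshold, the 3 of each list with the smallest p that were not, and the 5 nearest to Tspan7, of which 1 is not reported here. Pick1, Igsf8, Ptgfrn, Fzd4 and neighbouring genes were added to these as partners or neighbours of members. The replicate number was also fitted as a block; arrays of the same number did not deviate together (r = -0.03, -0.04 and -0.03).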

Additional observations from a re-analysis of the deposited data

How the results depend on the processing

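The log2 difference of Tspan7 kept its sign under all 20 alternatives (5.96 to 8.58), as did those of Tspan4, Tspan6, Tspan12, Cd9 and Cd82; Cd81, which had a value in 19, kept it in those. Tspan3 kept its sign in 18 of 19, and Cd63 and Cd151 in 18 of 20. The count of members called higher was 1, and 0 without the filter on dim probes; leaving out 1 array at a time gave 0 to 1, with 0 lower in each. Other tetraspanins called higher were 2, and became 5 with all 6 arrays as 6 samples, 1 with the replicate block on 4 samples, 0 with normexp, 0 without the filter, 1 without dark-patch spots, 1 with the median over a gene's probes, 1 with the percentile over probes usable on all arrays (chosen after seeing the data) and 0 to 5 with 1 array left out. Other tetraspanins called lower were 0, and became 1 with 6 samples, 1 with 6 samples and the replicate block, and 0 to 1 with 1 array left out. Partner genes called higher were 1, and became 4 with 6 samples, 2 with 6 samples and the replicate block, 0 with normexp, 0 without the filter, and 0 to 1 with 1 array left out. Partner genes called lower were 0, and became 1 with 6 samples, 1 with siRNA-MEG3 as 1 sample, and 0 to 1 with 1 array left out. Over all genes, 303 calls became 5701 with 6 samples, 2690 with 6 samples and the replicate block, 152 with the replicate block on 4 samples, 1322 with siRNA-MEG3 as 1 sample, 187 with normexp, 0 without the filter (4349 at an unadjusted p under 0.05, limma) and 0 to 2993 with 1 array left out. The 0 came without siRNA-NC array 2 (7417 at an unadjusted p under 0.05, limma), and the 2993 without siRNA-MEG3 array 2; each leaves 1 sample in a group, assumed to vary like the other. The share of calls that were higher was 69.3%, and 81.6% with the replicate block on 4 samples, 36.5% with siRNA-MEG3 as 1 sample, 54.6% with 6 samples, 52.9% with 6 samples and the replicate block, 80.4% when siRNA-NC array 1 and 40.1% when siRNA-MEG3 array 2 was left out. The samples share only a replicate number, so the block says nothing of pairing. The median of all genes moved from -0.02 to 0.10 with normexp and -0.11 when siRNA-NC array 2 was left out. Normexp adds an offset of 50 to every signal, which by construction shrinks differences that involve dim readings. How far the offset accounts for the changes under normexp was not tested, nor were the causes of the other changes. Signals near background limit the siRNA-NC levels of Tspan7, Tspan13 and Tspan33, and 2 samples per group limit every test.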
